A study of Mus musculus with 3 samples.

Results

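Transcripts of the desmosome, the junction that rivets neighbouring keratinocytes together, were followed in the dorsal skin of uncv null mouse pups, 4 days old, and of a wild type sister. The set was fixed by name as 10 genes: the desmosomal cadherins Dsg2, Dsg3, Dsc1, Dsc2 and Dsc3, the plaque proteins Jup, Pkp1, Pkp3 and Dsp, and the membrane protein Perp. A probe set, a group of probes on the array for 1 transcript or a few related ones, was counted where the platform annotation gave it exactly 1 of these symbols. This found 20 probe sets for 9 of the 10 genes, out of 18193 genes with such a probe set in the whole table. Dsg3 had 0 and was not measured. All 9 genes had a probe set bright enough to be tested, with a mean of at least 5 on the log2 scale, and 15 of the 20 probe sets passed that filter. The other 5, which were 4 for Dsg2 and 1 for Dsc2, had values between 2.69 and 4.84.

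The study hybridised 1 wild type array and 2 arrays of uncv null skin, which the labels number and which are called null 1 and null 2 here. All mice were female, of the BALB/cA strain and 4 days old, and were described as sisters from parents heterozygous for uncv. Wild type mice carried 2 normal alleles (uncv +/+) and null mice carried none (uncv -/-). Uncovered (uncv) is a spontaneous hair loss mutation mapped to Rhbdf2, the gene of the inactive rhomboid iRhom2, a partner of the sheddase ADAM17. Expression is given as RMA values in log2 units, so that a difference of 1 is a 2-fold difference, and each gene is represented by its brightest tested probe set unless another is named.

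In a desmosome the cadherins of both cells, desmogleins and desmocollins, bind each other in the gap between the membranes. Their tails hold the armadillo proteins plakoglobin and plakophilin, which in turn hold desmoplakin, and desmoplakin ties the junction to the keratin filaments. The isoforms change through the epidermis, with desmocollin 3 and desmoglein 3 strongest in lower layers and desmocollin 1 in upper layers.

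The arrays differed in control probe sets, and among these null 1 stood apart. Over all tested probe sets, null 2 lay farther from wild type. The standard deviation of the difference from wild type was 0.35 in null 1 and 0.43 in null 2. Between the null arrays it was 0.42. The mean of the 18S ribosomal RNA probe sets was 3.59 in wild type, 7.93 in null 1 and 4.26 in null 2. For the Actb control, the excess of the 3' over the 5' probe set was 0.66, 1.23 and 0.79 on these arrays. The hybridisation spike-ins (18 probe sets) averaged 0.70 above wild type in null 1 and 0.43 in null 2. Single spike-ins ran from 0.30 to 1.20 from wild type in null 1 and from -0.06 to 0.93 in null 2. All 9 desmosomal genes lay nearer to wild type than the spike-in mean in null 1, and 5 of 9 in null 2. The share of all tested genes within these distances was not counted, so nothing particular to the members is shown. Rhbdf2 itself was at 5.83 in wild type, 6.29 in null 1 and 6.49 in null 2, and its probe set was not placed relative to the mutation, so it does not check the labels. Values of desmosomal genes are therefore given for each array.

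Desmosomal transcripts lay slightly above wild type. Of the 9 measured genes, 7 (Jup, Pkp1, Pkp3, Dsp, Perp, Dsc3 and Dsg2) were higher than wild type in both null arrays and 0 were lower in both, while among all 8456 tested genes 38.8% were higher and 26.4% lower in both. The median difference over the 9 genes was 0.28 in null 1 and 0.39 in null 2, where all tested genes had medians of 0.03 and 0.07. No member reached a 2-fold difference in either array, a size that 0.520% of all tested genes reached in both arrays on the same side, and the largest single difference was 0.67, for Pkp3 in null 2. Both differences of a gene share the single wild type array, so a low reading on that array alone puts a gene above wild type on both sides.

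By limma, 0 of the 9 genes passed the test (adjusted p = 0.9996 for each, Benjamini-Hochberg adjustment across the 13559 tested probe sets), and 0.00% of all tested genes did. At an unadjusted p under 0.05, the count was 0 of 9 members, beside 2.90% of all tested genes. The smallest unadjusted limma p among members was 0.107, for Jup, and with an intensity trend the count past the adjusted threshold was also 0. All 9 of the 95% intervals included 0, and their half-widths ran from 0.63 to 0.94, so a change of 0.5 could not be told from none with these arrays. For a single gene, an exact permutation over 1 against 2 arrays cannot give a two-sided p below 0.333. The values that follow therefore describe 3 arrays.

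**Figure D1:**
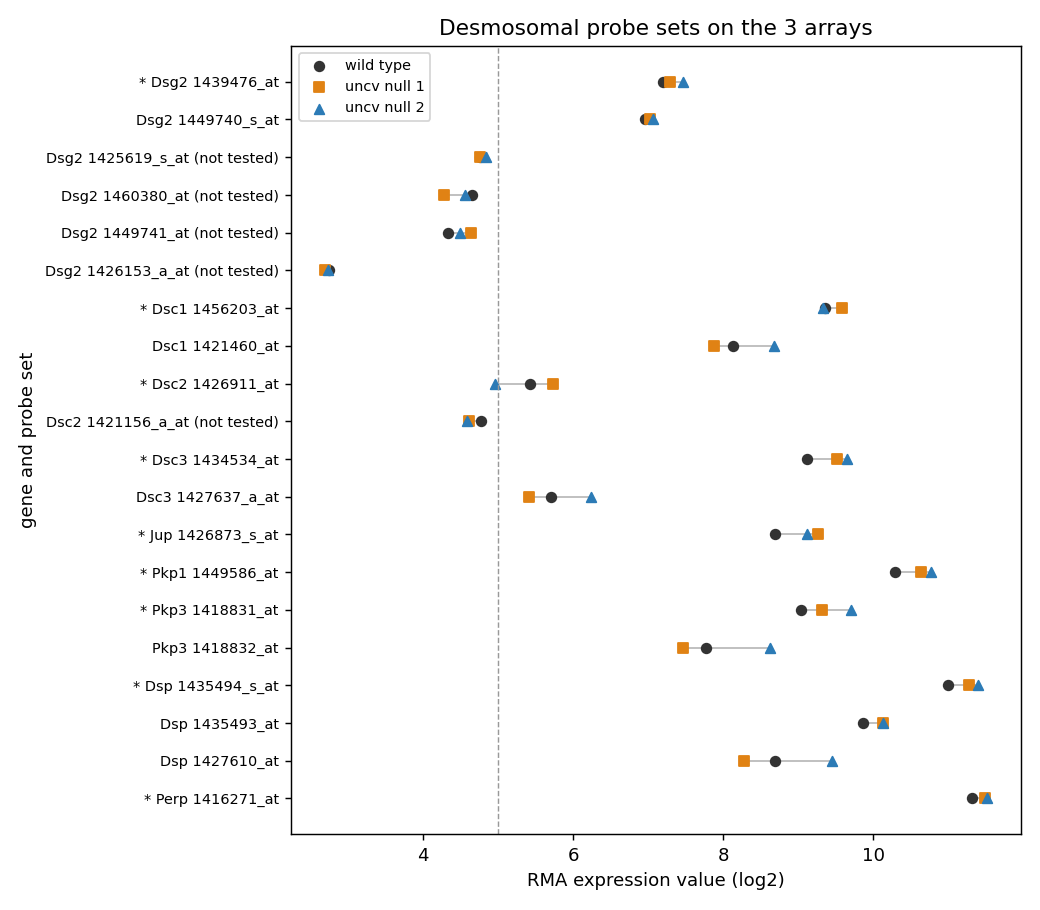
RMA expression values (log2, horizontal axis) of all 20 desmosomal probe sets on the wild type array (circles), null 1 (squares) and null 2 (triangles). Stars mark the brightest tested probe set of each gene and the dashed line marks the filter at a mean of 5; in Dsp, Jup, Pkp1 and Perp the starred circle lies to the left of the other marks.

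By their brightest probe sets, all 4 plaque genes were higher in both null arrays, beside 38.8% of all tested genes. Their mean differences ran from 0.33 to 0.50. A further tested probe set of Dsp and a further one of Pkp3 lay below wild type in null 1 and above it in null 2. Whether plaque genes differ from cadherins was not tested. Jup encodes plakoglobin, an armadillo protein that binds desmosomal cadherin tails and also serves in adherens junctions. Its value was 8.69 in wild type, 9.27 in null 1 and 9.12 in null 2. The 2 null arrays were close to each other and both above wild type, with a mean difference of 0.50 ± 0.26 (limma's moderated SE, 1 against 2 arrays; 1.42-fold). Jup was also the only one of the 7 genes higher in both arrays whose larger difference was in null 1.

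Pkp1 encodes plakophilin 1, the main plakophilin of upper epidermal layers, whose loss in people causes skin fragility. It was at 10.3 in wild type, 10.6 in null 1 and 10.8 in null 2. Its difference was 0.42 ± 0.26 (limma's moderated SE), and the gap between the null arrays was 0.13. Pkp3, a plakophilin found through all epidermal layers, was at 9.04, 9.32 and 9.71 in the same order. Here the arrays spread more, with differences of 0.28 in null 1 and 0.67 in null 2.

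Dsp encodes desmoplakin, the plakin that links the plaque to keratin filaments. It was at 11.01 in wild type, 11.27 in null 1 and 11.40 in null 2, a mean difference of 0.33 ± 0.26 (limma's moderated SE; 1.26-fold). A further Dsp probe set, 1435493_at, gave 9.87, 10.1 and 10.1, again with both null arrays above wild type. The third tested Dsp probe set, 1427610_at, lay on opposite sides of wild type, at -0.41 in null 1 and 0.76 in null 2. The brightest Dsp probe set and the single Jup probe set carry the suffix that marks probes shared by several transcripts, so signal from related transcripts in them could not be separated here.

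RefSeq promoter entries (GRCm38.p6, from the C57BL/6J strain) were matched for 2 of the 10 genes, Jup and Dsp, the anchor of the cadherin tails and the anchor of the keratins. The stretches upstream of their outermost annotated starts are shown because only these 2 members had an entry, and expression played no part in the choice. Each runs 5′ to 3′ on the gene's own strand, and capitals mark GC boxes (GGGCGG on either strand).
Jup, chr11:100397840-100398040, minus strand: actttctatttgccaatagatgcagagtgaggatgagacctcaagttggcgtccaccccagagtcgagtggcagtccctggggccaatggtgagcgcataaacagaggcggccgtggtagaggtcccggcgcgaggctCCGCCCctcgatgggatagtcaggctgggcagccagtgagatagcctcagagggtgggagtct
Dsp, chr13:38151044-38151293, plus strand: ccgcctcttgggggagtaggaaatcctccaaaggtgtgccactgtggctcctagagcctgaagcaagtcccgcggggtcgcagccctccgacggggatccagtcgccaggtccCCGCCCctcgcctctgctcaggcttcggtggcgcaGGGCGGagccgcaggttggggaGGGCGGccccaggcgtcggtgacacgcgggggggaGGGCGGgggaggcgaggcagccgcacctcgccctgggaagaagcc
The Dsp stretch of 250 bases held 4 GC boxes and was 72.4% G and C. The Jup stretch of 201 bases held 1 and was 60.2% G and C. Among the 32851 RefSeq promoter entries, 32.7% held at least 1 GC box in the same 250 bases and 24.8% in the same 201 bases. How many held 4 was not counted. The Jup stretch also held 2 CCAAT boxes (CCAAT, either strand), found in 28.6% of entries at that length, and Dsp held 0. Neither held a TATA box (TATAAA), an AP-1 site (TGANTCA), an E-box (CANNTG) or a Grainyhead-like site (AACNGGTT), all searched on both strands with overlapping matches counted. At 250 bases, those were found in 12.4%, 6.75%, 66.2% and 1.79% of entries. These matches are letters in a window, not sites of binding.

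Perp is a tetraspan membrane protein of desmosomes and a target of p63 in stratified epithelia. It was at 11.3 in wild type, 11.5 in null 1 and 11.5 in null 2. The arrays of null skin differed by 0.04, and the difference from wild type was 0.18 ± 0.26 (limma's moderated SE; 1.13-fold). Perp had the closest agreement between the null arrays of the 9 genes, at a small distance from wild type.

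The cadherins were mixed. Of 4 measured genes, 2 were higher in both arrays, beside 38.8% of all tested genes, and 2 lay on opposite sides of wild type. Dsc3, the desmocollin of basal and lower spinous keratinocytes, was at 9.12 in wild type, 9.52 in null 1 and 9.65 in null 2. Its difference of 0.47 ± 0.26 (limma's moderated SE; 1.38-fold) was close to those of Jup and Pkp3. Dsg2, a desmoglein of simple epithelia, heart and the hair follicle, was at 7.20, 7.30 and 7.47, a difference of 0.18 ± 0.26. A further tested Dsg2 probe set, 1449740_s_at, gave 6.96, 7.03 and 7.07, in the same order of arrays.

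Dsc1, the desmocollin of differentiated upper layers, was at 9.37 in wild type, 9.58 in null 1 and 9.33 in null 2. One null array thus lay above wild type and the other at its level, for a mean difference of 0.09 ± 0.27 (limma's moderated SE). Dsc2, the desmocollin with the widest tissue range, was measured by a probe set close to the filter. It was at 5.42 in wild type, 5.74 in null 1 and 4.96 in null 2, so the wild type array sat between the null arrays. The mean difference was -0.07 ± 0.38, and Dsc2 had the largest gap between null arrays among the 9 genes, at 0.78. Whether the difference of Dsc3 exceeds that of Dsc1 was not tested.

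**Figure D2:**
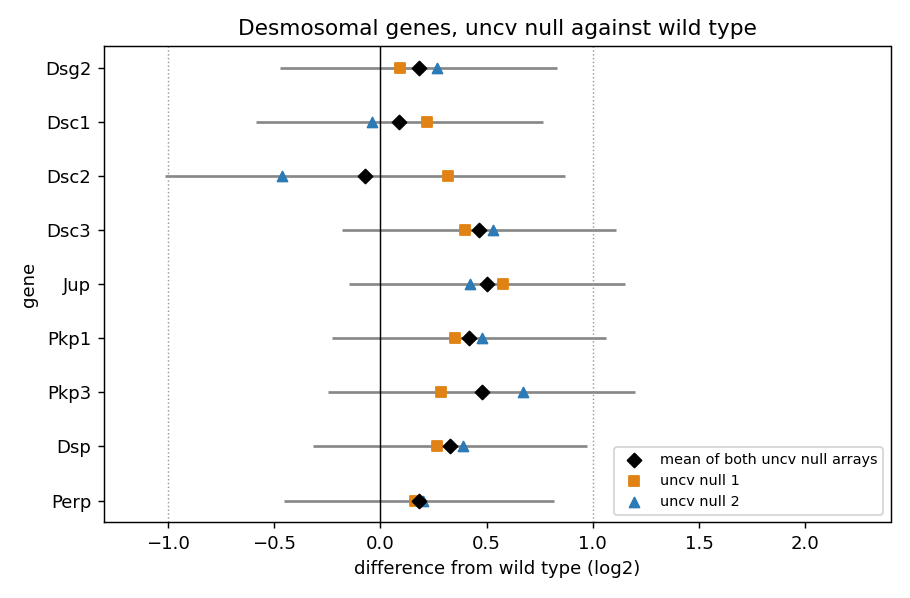
Differences from wild type (log2, horizontal axis) of the 9 measured genes in null 1 (squares) and null 2 (triangles), with their mean (diamonds) and limma's 95% interval (grey lines); dotted lines mark 2-fold. All 9 intervals cross 0, and the squares and triangles of Dsc1 and Dsc2 fall on opposite sides of it.

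For 7 of 9 genes, the mean difference was larger than the gap between the null arrays, and all 7 were the genes higher in both. Over all tested genes, 26.6% were higher in both with a mean difference larger than that gap. Of these 7 genes, 6 had their larger difference in null 2, and the share of all tested genes with that order was not counted. Over all tested probe sets, differences from wild type were also wider in null 2, with standard deviations of 0.35 in null 1 and 0.43 in null 2. Among all tested genes, 53.5% were above wild type in null 1 and 58.8% in null 2.

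Probe sets of the same gene did not always give the same order of arrays. Among the 5 genes with several tested probe sets, 6 further probe sets were tested besides the brightest. In 4 of these 6, one each of Dsp, Pkp3, Dsc1 and Dsc3, null 1 lay below wild type and null 2 above it. Of all 4083 further probe sets of tested genes, 29.1% had that order. This count was made after the values were seen.

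The Dsp probe set 1427610_at was at 8.69 in wild type, 8.28 in null 1 and 9.45 in null 2. The Pkp3 probe set 1418832_at followed the same order, at 7.77, 7.46 and 8.63. In these 2 probe sets the null arrays were 1.17 and 1.16 apart, more than 2-fold, and wild type lay between them. Dsc1 by 1421460_at was at 8.13, 7.88 and 8.68, and Dsc3 by 1427637_a_at was at 5.71, 5.42 and 6.24. The spread between the null arrays in these 4 probe sets was thus larger than any difference from wild type seen with the brightest probe sets.

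In the Actb control, the 5' probe set of null 1 was at -0.83 from wild type and the 3' probe set at -0.26. For Gapdh the same values were -0.54 and -0.23. In null 2, the Actb 5' and 3' probe sets were at -0.05 and 0.08 from wild type, and those of Gapdh at -0.02 and -0.01. Where the desmosomal probe sets lie along their transcripts was not examined, and the part of RNA quality in their disagreement was not tested. With the second brightest tested probe set in place of the brightest, 5 of 9 genes were higher in both null arrays, beside 35.6% of all tested genes, and the median difference was 0.18 in place of 0.33. Dsc3 was then at 0.12 in place of 0.47, and Pkp3 at 0.27 in place of 0.48. This alternative was chosen after the data were seen. In null 2, 13 of the 15 tested desmosomal probe sets were above wild type, beside 57.9% of all tested probe sets, and in null 1 the count was 11 of 15, beside 48.8%.

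**Figure D3:**
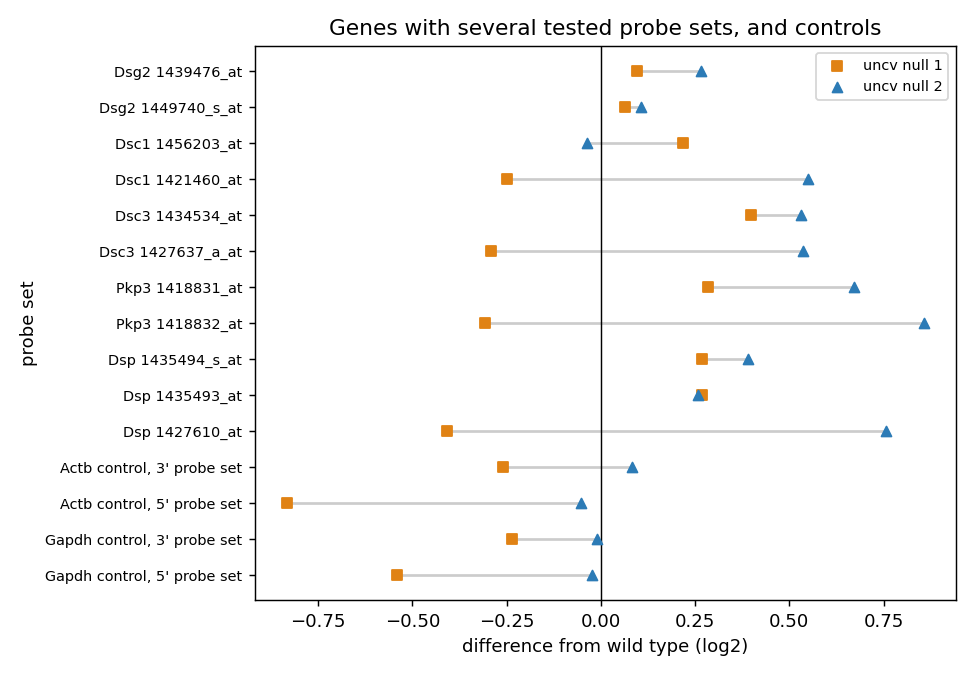
Differences from wild type (log2, horizontal axis) in null 1 (squares) and null 2 (triangles) for the tested probe sets of the 5 genes with several, above the 3' and 5' probe sets of the Actb and Gapdh controls. In 4 desmosomal probe sets the square lies left of 0 and the triangle right of it, and the Actb 5' square lies at -0.83.

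The other genes of the junction were read from lists chosen by function. Of 7 further desmosome and corneodesmosome genes, 4 were tested. Of these, 3 were higher in both null arrays, beside 38.8% of all tested genes, and 0 lower. By the adjusted limma test 0 passed, beside 0.00% of all tested genes. Dsg1a, a form of the main desmoglein of upper layers, was at 8.96 in wild type, 9.11 in null 1 and 9.20 in null 2. Dsg1b was at 5.97, 6.04 and 5.80. Dsg1a and Dsg1b are near copies, so the array may not separate them. Cdsn, which encodes corneodesmosin, the glycoprotein that seals desmosomes in the cornified layer, was at 9.76, 10.1 and 10.1, with a difference of 0.33 ± 0.26 (limma's moderated SE). Pkp4, a plakophilin relative of several junctions, was at 7.60, 7.86 and 7.80. Pkp2, the plakophilin of heart and simple epithelia, was below the filter, at 4.08, 4.73 and 4.87.

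The plakins that share desmoplakin's family lay on the same side as Dsp. All 6 listed plakins other than Dsp were higher in both null arrays, beside 38.8% of all tested genes. Their list medians were 0.47 in null 1 and 0.42 in null 2. By the adjusted limma test 0 passed, beside 0.00% of all tested genes. Evpl and Ppl, the envelope plakins that join desmosomes to the cornified envelope, differed by 0.50 ± 0.26 and 0.26 ± 0.27. Plec, which encodes plectin, a linker of hemidesmosomes, differed by 0.37 ± 0.27, and Eppk1, epiplakin, by 0.61 ± 0.28. The keratins that desmosomes anchor did not share this pattern. Of 5 tested epidermal keratins, Krt14 alone was higher in both arrays and Krt15 alone lower, with list medians of -0.07 and 0.16. Krt5, a basal keratin, was at 11.4 in wild type and at 11.3 and 11.5 in the null arrays. Krt14, its partner, was at 11.5, 11.6 and 12.0. Krt1 and Krt10, the pair of upper layers, differed by 0.03 ± 0.28 and -0.01 ± 0.26. They were at 12.6 and 12.8 in wild type, near the highest deposited value of 13.1. Whether such brightness limits their differences was not tested. The difference between the desmosomal and the keratin list was not tested.

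Adherens junction genes, which share plakoglobin with desmosomes, had medians of 0.19 and 0.30, with 8 of 10 tested genes higher in both arrays and 2, Ctnnb1 and Nectin3, lower. Cdh1, E-cadherin, was at 9.12, 9.29 and 9.35, and Cdh3, P-cadherin, was at 6.35, 6.36 and 6.75. Ctnnb1, which encodes beta-catenin, plakoglobin's closest relative, was at 11.7, 11.6 and 11.6 and lay below wild type by 0.06 in both arrays, on the other side from Jup. Ctnna1, alpha-catenin, differed by 0.11 ± 0.27 (limma's moderated SE). A higher value in both arrays was thus common to several junction lists, beside 38.8% of all tested genes. The lists are short, and nothing particular to desmosomes was shown.

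Among epidermal transcription factors known to act on junction genes, 4 of 6 tested were higher in both arrays and 0 lower. Over all tested genes, 38.8% were higher in both. Trp63, the master regulator of stratified epithelia, was at 8.87, 9.08 and 9.15. Grhl1, a Grainyhead-like factor known to bind the Dsg1 promoter, was at 8.51, 8.72 and 8.86. Grhl3, its relative in barrier formation, was at 5.84, 6.18 and 6.73, and Klf4, a factor of upper layers, was at 9.72, 10.2 and 9.65. Of the 5 tested proteases and inhibitors that act on corneodesmosomes, 4 were higher in both arrays, again beside 38.8% of all tested genes. Klk5 and Klk7, kallikreins that cut desmosomal proteins during shedding of the skin surface, differed by 0.32 ± 0.28 and 0.67 ± 0.37. Spink5, their inhibitor, differed by 0.07 ± 0.27. Cst6, cystatin M/E, an inhibitor of cathepsins, differed by 0.91 ± 0.34, and its unadjusted limma p was 0.036 (adjusted p = 0.9996). Rhbdf1, the relative of Rhbdf2, differed by 0.10 ± 0.29. The sheddases that can cut desmosomal cadherins at the cell surface, Adam17 and Adam10, differed by 0.49 ± 0.28 and 0.17 ± 0.26, and transcript values do not measure shedding.

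Markers of the tissues in the sample differed beside these values. For the counts below, 38.8% of all tested genes were higher in both arrays and 26.4% lower in both. In whole skin, fewer cells of a type and less RNA per cell cannot be told apart. Of the 5 basal keratinocyte markers, 4 were higher in both arrays, and the mean of their log2 values was 8.90 in wild type, 9.18 in null 1 and 9.47 in null 2. The 5 suprabasal markers averaged 11.6, 11.7 and 11.8, with 2 higher in both arrays. The 5 tested granular markers averaged 9.72, 9.80 and 10.04, with 3 higher in both arrays. All 7 skeletal muscle markers were lower in both arrays, and their mean was 10.2 in wild type, 9.49 in null 1 and 8.98 in null 2. All 6 fibroblast markers were lower in both arrays (means of 11.4, 11.3 and 10.9), and all 5 tested adipocyte markers were higher (means of 7.85, 8.32 and 9.09). Hair shaft markers averaged 9.65, 9.28 and 9.82, with 0 of 5 higher in both arrays and 0 lower in both. Of the tested markers of other cells, 3 of 4 for leukocytes were higher in both arrays, 2 of 5 for endothelium and 1 of 2 for Schwann cells were lower, and 0 of 4 for melanocytes lay on one side. The share of epidermis in each piece of skin could differ, and its part in the desmosomal differences was not tested.

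**Figure D4:**
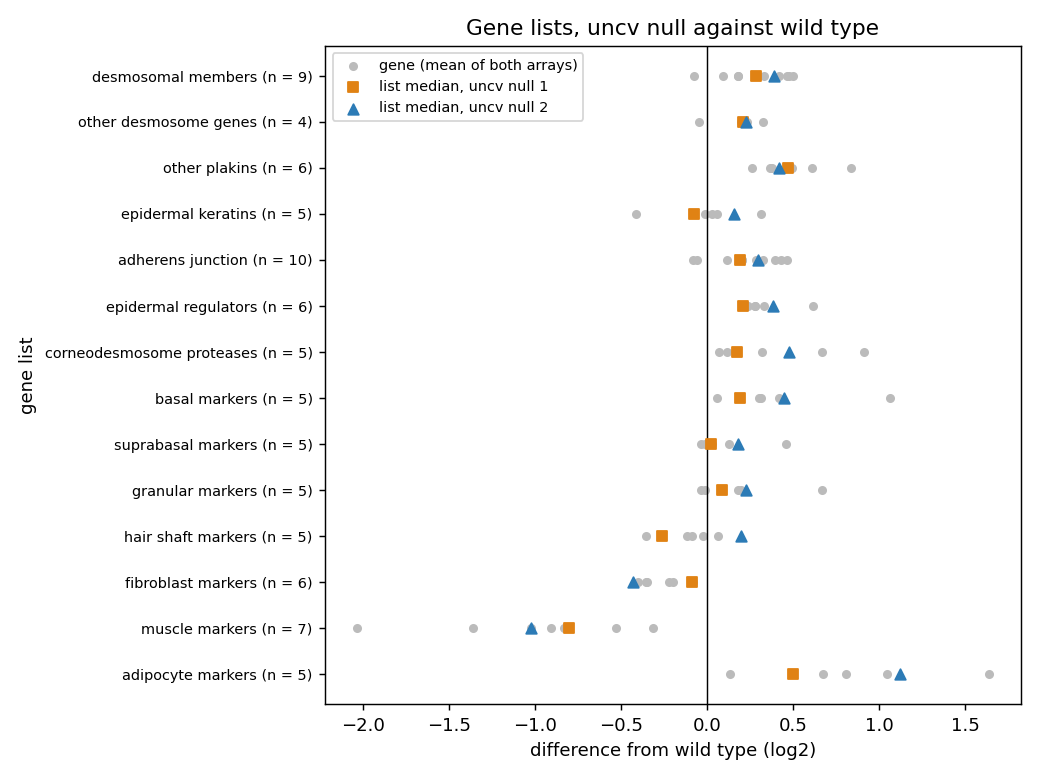
Differences from wild type (log2, horizontal axis) for the desmosomal genes and 13 other lists, with each tested gene's mean over both null arrays as a grey point and list medians in null 1 (squares) and null 2 (triangles). The desmosomal medians of 0.28 and 0.39 lie among those of the other junction lists, and the muscle medians lie at -0.80 and -1.02.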

How the data were processed

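Total RNA of dorsal skin was hybridised to 1-colour arrays, 1 per sample, and groups and numbers came from the sample titles. The deposited values are RMA values in log2 units, per the submitters' processing notes, and ran from 1.96 to 13.1. Which software and which background model were used is not given in the sources used here. RMA normalizes between arrays, so a change common to all transcripts would be largely removed; the medians of the deposited values were 3.70, 3.70 and 3.65 in wild type, null 1 and null 2. Of 45037 probe sets, 34945 had 1 gene symbol, 932 several and 9160 none; 34741 of the first matched the reference gene table by identifier. The 64 control probe sets were kept apart.

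Probe sets with a mean of at least 5 were tested (13559 probe sets, 8456 genes) by limma 3.58.1 (lmFit, then eBayes; R 4.3.3), with p-values adjusted by Benjamini-Hochberg across all of them at a threshold of 0.05. Each probe set has 1 residual degree of freedom, the gap between the null arrays, to which eBayes adds 4.75 prior degrees of freedom. The lone wild type array is taken to vary like the null arrays. P-values measure only the spread between these arrays, whose number limits the precision. The procedure was tested on simulated data.

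The members and lists were chosen with earlier results of these data known. All 10 members were named, with each of their tested probe sets, while the 5 below the filter were given only as a range in the text. Of each junction list, the first 4 tested genes in written order were named. Pkp2, Krt15 and Nectin3 were named after their values were seen. Alternatives were other filters, probe set rules, normalizations, an intensity trend and leaving out each null array.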

Additional observations from a re-analysis of the deposited data

Results flagged for a closer look

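Among control probe sets outside the comparison, 18S signal and the Actb 3' minus 5' difference were above the wild type array. The 18S ribosomal RNA probe sets averaged 7.93 in null 1 and 4.26 in null 2, against 3.59 in wild type. The Actb control's 3' minus 5' difference was 1.23 in null 1, 0.79 in null 2 and 0.66 in wild type, while the Actb signals of null 1 were themselves below wild type. The array null 1 held the highest value of both measures. Their part in the desmosomal values was not tested.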

How the results depend on the processing

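The count of desmosomal genes past the adjusted threshold was 0 in every fit run, with a smallest adjusted limma p of 0.9985. Among all tested genes the count was also 0 in each fit, so it shows nothing particular to the members. Under any alternative, 0 desmosomal genes were 2-fold from wild type in both arrays, beside 0.520% of all tested genes in the main setting. Of 80 recomputed differences, 34 were identical by construction (another filter or variance model, or a gene with 1 tested probe set). Of the 46 that moved, 44 kept their sign. The exceptions were Dsc1, which was at -0.037 without null 1 and 0.22 without null 2, and Dsc2, which was at -0.46 without null 1 and 0.32 without null 2. With 1 null array left out, each difference is that of the other null array alone, so genes higher in both kept their sign by construction. The count is then of genes above wild type in that array alone. It was 7 of 9 without null 1, beside 58.8% of all tested genes, with a median of 0.39. Without null 2 it was 9 of 9, beside 53.5%, with a median of 0.28. Without null 2, Dsg2 was at 0.10 in place of 0.18 and Pkp3 at 0.28 in place of 0.48. The median was 0.18 with the second brightest probe set. Averaging the tested probe sets of each gene gave 6 genes higher in both, beside 36.5% of all tested genes, and a median of 0.26. With only 1 array, wild type could not be omitted, and with 1 null array no test remains. At a minimum mean of 7, Dsc2 gave no value. No paired analysis was possible because 1 wild type array cannot be matched to each of 2 null arrays.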
